A study of Mus musculus with 5 samples.

Results

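The genes analysed here encode the machinery of cyclic nucleotide signalling in olfactory sensory neurons: the cyclases that make cAMP and cGMP, the phosphodiesterases that degrade them, the kinases and exchange factors that respond to them, and the proteins that anchor the cAMP-dependent kinase. They were chosen by name from the annotation, whatever their counts: every gene whose symbol starts with Adcy, Pde, Prkar, Prkac or Akap and carries the family's numbering, the Prkg kinases, the exchange factors *Rapgef2*, *Rapgef3* and *Rapgef4*, and every symbol starting with Gucy. Of the 55411 genes in the count tables, 72 were members. They comprised 10 adenylyl cyclases, 9 guanylyl cyclase subunits, 26 phosphodiesterase-named genes, 4 regulatory and 2 catalytic subunits of the cAMP-dependent protein kinase (PKA), 2 cGMP-dependent kinases, 16 A-kinase anchoring proteins and 3 Rap exchange factors.

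The neurons came from 7-week-old male mice homozygous for Olfr151tm26Mom, a knock-in allele that makes each neuron transcribing the odorant receptor gene *Olfr151* fluoresce green, and control and exposed mice carried it alike. Mice were kept singly for 5 h with 5% acetophenone in DMSO (exposed) or with DMSO alone (control). Acetophenone is an agonist of the Olfr151 receptor. GFP-positive neurons of 4 mice were pooled per library, and 3 control pools (1, 2 and 3) were compared with 2 exposed pools (1 and 3). Exposed pool 2 was not analysed here. Values by pool are given in that order throughout, the controls before the exposed pools. A pool held 200 cells by the sample characteristics and by the study's methods. The extraction text gives 400, the number that the methods give for pools of *Olfr16* neurons.

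Library totals over genes lay between 42636543 and 49390446 counts, so that 3 counts correspond to 0.0608 to 0.0718 CPM, the counts scaled to the library's size, depending on the library. Markers of mature olfactory sensory neurons were all above the test's count filter in this material (11 of 11). Their summed level was 59144 to 62381 CPM in the control pools and 51693 to 54671 CPM in the exposed pools. None was called higher, and 4 were called lower in the exposed pools: *Rtp1* (log2 fold change -1.07, edgeR adjusted p = 0.00991), *Cnga2*, *Cnga4* and *Cngb1*. Of the 4 markers listed for the cGMP-using olfactory neurons, 1 was tested: *Car2*, called lower too (-0.92, edgeR adjusted p = 0.0708). The others were near or at 0. *Cnga3* had 3 counts in control pool 1 and 1 in control pool 3, and *Ms4a4a* had none. *Ms4a6c* had 107 counts in exposed pool 1 and none elsewhere. The *Car2* value alone therefore does not describe these neurons. Markers of other cells were far lower: myeloid markers summed to 206, 27.5 and 24.1 CPM in the controls and to 227 and 82.9 CPM after exposure, and sustentacular markers to 56.9 to 249 CPM and 86.5 to 180 CPM. None of the 15 myeloid markers was at 0 in all libraries. Of the 6 tested, only *Fcer1g*, an Fc receptor subunit of myeloid cells, was called, higher in the exposed pools (log2 fold change 2.63, edgeR adjusted p = 0.0798). The summed erythroid markers, globin genes and *Alas2*, were 348, 108 and 13.0 CPM in the controls and 15.5 and 6.70 CPM after exposure, so control pool 3 lay with the exposed pools. Markers of immature neurons summed to 2359 to 2594 CPM in the controls and 2574 to 2811 CPM after exposure, and *Gap43*, a growth cone protein, was called higher (log2 fold change 0.94, edgeR adjusted p = 0.0891). The other 6 were not called, with *Gng8* and *Dpysl3* at 1.13 and 1.31 and *Crmp1* and *Tubb3* at -0.54 and -0.60, each with pools that did not overlap. The part of these marker shifts in the results below was not tested. In bulk RNA of this kind, fewer cells of a type and less RNA per cell cannot be told apart. Mice were handled over consecutive days, with 4 of each condition on a day, so each pool may hold the mice of a single day. No label ties a pool to its day. The edgeR p-values set the difference between conditions against the spread between pools of the same condition. The exact permutation p-values below come from reassigning these 5 pools to the conditions.

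In an olfactory sensory neuron, an odorant receptor bound by its ligand activates the olfactory G protein, which stimulates type III adenylyl cyclase in the cilia. The cAMP made there opens a cyclic nucleotide-gated channel and starts the electrical response, and phosphodiesterases in the cilium and the cell body return cAMP to baseline. PKA is held inactive by regulatory subunits that release the catalytic subunits when they bind cAMP, and anchoring proteins place the enzyme at particular sites in the cell. A small set of olfactory neurons uses cGMP instead, made by a receptor-type guanylyl cyclase.

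Of the 72 members, 26 reached the filter of 142 counts in every pool of at least 1 condition and were tested, and each of the 26 did so in both conditions, the lowest count being 154. Exposure was followed by higher levels of *Prkar1a*, *Akap13* and *Pde10a* and by a lower level of *Prkaca*. A call required an edgeR quasi-likelihood p-value under 0.1 after Benjamini-Hochberg adjustment over all 10035 genes tested and an absolute log2 fold change above 0.5. These 4 calls made up 15.4% of the members tested, against 5.26% of all genes tested, of which 3.41% were called higher and 1.85% lower. The pools of the 2 conditions did not overlap for 12 members, 7 of them higher and 5 lower in the exposed pools. That is 46.2% of the members tested, against a background of 40.0% of all genes. The median log2 fold change was 0.14 over the members and -0.026 over all genes tested.

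**Figure D1:**
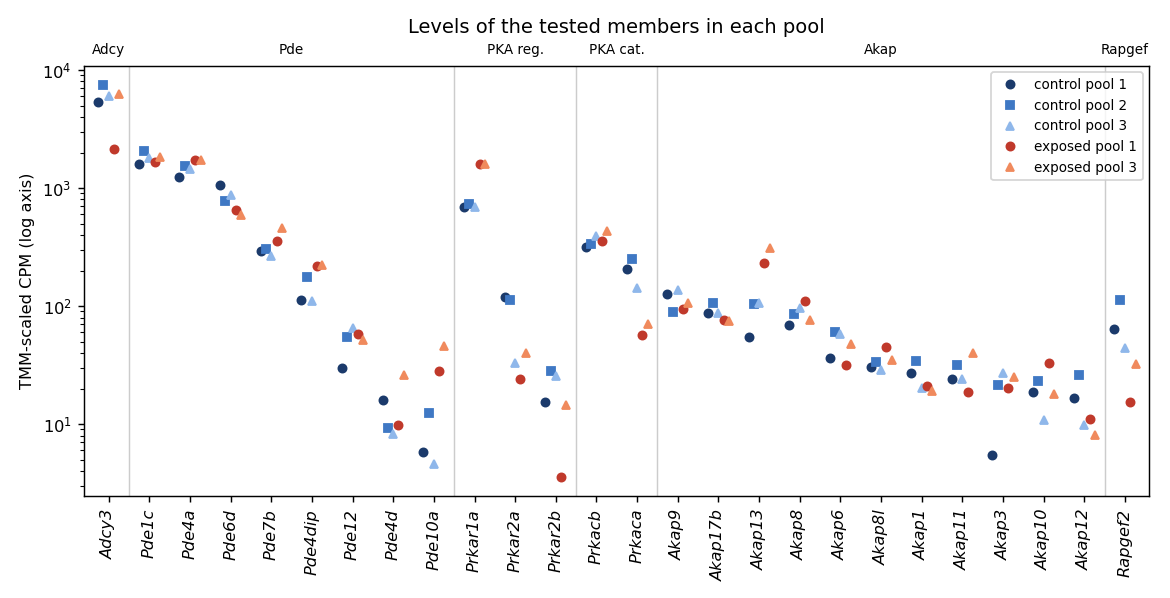
TMM-scaled CPM (log axis) of the 26 tested members in each of the 5 pools, grouped by family, blue for control and red or orange for exposed pools. *Adcy3* was the highest member in every pool, with exposed pool 1 at 2144 CPM below the others, and *Prkar1a* stood near 1597 CPM in both exposed pools against 687 to 726 CPM in the control pools.

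The upstream sequences of the called members are shown because these genes carry the results below, and because cAMP can act on transcription through the cAMP response element, TGACGTCA, which is a palindrome. That motif and its shorter form TGACG (either strand, CGTCA on the other, and contained in the palindrome) were searched in the RefSeq promoter windows of GRCm38.p6, from 250 bases before to 50 bases after each annotated start. Each window is written 5′ to 3′ on the gene's strand, with matches in capitals. The windows shown were picked for matches. Where a gene had several windows, a window with the palindrome is shown, failing that the first with the short form, and failing both the first. For *Prkar1a* the window is chr11:109650699-109650998, for *Prkaca* chr8:83972728-83973027, for *Akap13* chr7:75455284-75455583 and for *Pde10a* chr17:8801495-8801794, all on the plus strand.
Prkar1a: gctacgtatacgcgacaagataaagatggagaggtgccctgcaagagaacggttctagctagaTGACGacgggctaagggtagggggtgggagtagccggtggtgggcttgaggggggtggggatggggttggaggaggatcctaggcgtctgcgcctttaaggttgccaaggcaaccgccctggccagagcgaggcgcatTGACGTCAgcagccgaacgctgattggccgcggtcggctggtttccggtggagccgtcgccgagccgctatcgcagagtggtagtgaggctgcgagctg
Prkaca: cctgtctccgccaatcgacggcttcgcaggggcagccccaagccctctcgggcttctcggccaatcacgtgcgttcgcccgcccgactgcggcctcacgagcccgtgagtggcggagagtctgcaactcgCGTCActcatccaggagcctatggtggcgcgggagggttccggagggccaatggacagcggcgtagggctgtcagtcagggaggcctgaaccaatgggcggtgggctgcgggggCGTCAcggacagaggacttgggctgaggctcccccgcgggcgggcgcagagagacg
Akap13: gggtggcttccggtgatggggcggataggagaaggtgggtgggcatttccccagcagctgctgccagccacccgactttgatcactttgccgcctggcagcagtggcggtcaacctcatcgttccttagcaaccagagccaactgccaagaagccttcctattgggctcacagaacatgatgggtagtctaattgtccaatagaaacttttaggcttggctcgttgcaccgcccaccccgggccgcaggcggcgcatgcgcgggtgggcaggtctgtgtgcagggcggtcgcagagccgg
Pde10a: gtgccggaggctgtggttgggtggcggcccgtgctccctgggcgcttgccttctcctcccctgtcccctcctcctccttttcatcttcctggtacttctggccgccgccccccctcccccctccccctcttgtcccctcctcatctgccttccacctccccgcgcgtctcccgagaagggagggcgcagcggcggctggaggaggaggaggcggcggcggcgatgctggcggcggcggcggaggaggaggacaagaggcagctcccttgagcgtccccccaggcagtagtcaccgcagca

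The palindrome lay in 2 of the 6 *Prkar1a* windows, which overlap each other, and in the window shown it ended 41 bases before the start site. No other member held it: 2 of 106 member windows did (1.89%), against 588 of 32851 windows in the table (1.79%). The short form was present in 22 member windows (20.8%), the same share as over all windows (20.8%). Among the called members it was found in 3 of the 6 *Prkar1a* windows and 1 of the 2 *Prkaca* windows, and in none of the windows of *Akap13* (1) and *Pde10a* (2). The table held windows for 59 of the 72 members and none for the other 13. A match or its absence describes these letters in these windows only.

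The regulatory subunits of PKA differed from each other. *Prkar1a* (ENSMUSG00000020612, GRCm38 chr11:109649405-109669656, plus strand), which encodes the type I alpha subunit, had 29874, 35872 and 31803 counts in the controls and 68287 and 66889 counts after exposure. Every exposed pool was above every control pool, and the spread within each condition was small. On the TMM-scaled CPM scale the means were 700 ± 22.5 (SD, n = 3) and 1597 ± 6.03 (SD, n = 2), a 2.28-fold difference. Its log2 fold change was 1.19 with a standard error of 0.11 (edgeR adjusted p = 0.00423). *Prkar1a* stayed called whichever library was left out, at an adjusted p between 0.0111 and 0.0577, but not with the ERCC spike-ins as the scale (log2 fold change 0.97, adjusted p = 1.00) or with the pool number as a block (1.22, adjusted p = 0.126).

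The type II regulatory subunits lay in the other direction without a call. *Prkar2a* had 5238, 5572 and 1517 counts in the control pools and 1025 and 1666 counts in the exposed pools. Control pool 3 thus lay with the exposed pools rather than with its own condition (log2 fold change -1.48, standard error 0.60, edgeR adjusted p = 0.254). In CPM, *Prkar2a* had 120, 113 and 32.8 in the control pools and 23.9 and 39.9 in the exposed pools. Control pool 3 lay with the exposed pools for the summed erythroid markers too. These had 348, 108 and 13.0 CPM in the control pools and 15.5 and 6.70 CPM in the exposed pools. The part of the erythroid markers was not tested. Without control pool 3 the log2 fold change of *Prkar2a* was -1.85, and the gene was called (adjusted p = 0.0296). *Prkar2b*, the subunit typical of neurons and adipose tissue, had 664, 1385 and 1189 counts in the control pools and 154 and 604 counts in the exposed pools. The conditions did not overlap in CPM (15.3, 28.0 and 25.7 against 3.59 and 14.5), and the log2 fold change was -1.35 with a standard error of 0.64 (edgeR adjusted p = 0.307). It was -0.68 without exposed pool 1 (adjusted p = 0.702) and -2.71 without exposed pool 3 (adjusted p = 0.139). *Prkar1b* was at 0 in all pools except exposed pool 1, where it had 14 counts.

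The catalytic subunits split as well. *Prkaca* (ENSMUSG00000005469, chr8:83972993-83996443, plus strand), the alpha catalytic subunit, had 8970, 12437 and 6540 counts in the control pools and 2424 and 2946 counts in the exposed pools. All exposed values were below all control values. Its level was 200 ± 55.5 CPM (SD, n = 3) in the control pools and 63.5 ± 9.89 CPM (SD, n = 2) in the exposed pools, which is 31.8% of the control mean (log2 fold change -1.65, standard error 0.28, edgeR adjusted p = 0.0331). *Prkaca* lost its call without exposed pool 1 (adjusted p = 0.260) and without exposed pool 3 (adjusted p = 0.132), with log2 fold changes of -1.51 and -1.85, with the ERCC scale (-1.85, adjusted p = 0.458) and with the block (-1.44, adjusted p = 0.237). *Prkacb*, the beta catalytic subunit, had 13786, 16514 and 17994 counts in the control pools and 15161 and 18067 counts in the exposed pools. Its ranges overlapped, and the log2 fold change was 0.18 with a standard error of 0.16 (edgeR adjusted p = 0.592), turning to -0.0078 with the ERCC scale.

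Levels between genes were compared per length, as TPM, in which each gene's counts were divided by its deposited exon length before scaling to the library. *Prkar1a* held 87.3%, 86.9% and 92.9% of the regulatory subunit TPM in the control pools and 98.7% and 97.3% in the exposed pools (means 89.0 ± 3.34 and 98.0 ± 0.984, SD; exact permutation p = 0.2, two-sided). The smallest p that 3 against 2 pools allow is 0.1, so none of the exact tests could pass 0.05. *Prkar2a* held 7.51 ± 3.95% against 1.32 ± 0.451% and *Prkar2b* 3.46 ± 1.01% against 0.652 ± 0.549% (SD, n = 3 and n = 2; exact permutation p = 0.2 for both). *Prkaca* held 69.6%, 72.6% and 56.2% of the catalytic subunit TPM in the control pools and 36.0% and 36.5% in the exposed pools, so that *Prkacb* held most of it after exposure. That difference of -29.9 percentage points had the smallest p possible (exact permutation p = 0.1).

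Summed over subunits, regulatory TPM was 628 ± 64.7 in the control pools and 1155 ± 64.3 in the exposed pools, and catalytic TPM was 413 ± 81.5 and 216 ± 40.7 (SD, n = 3 and n = 2; exact permutation p = 0.1 for each). The ratio of regulatory to catalytic TPM was 1.53, 1.39 and 1.69 in the controls and 5.92 and 4.90 after exposure. It was thus higher in both exposed pools than in any control pool (1.54 ± 0.152 against 5.41 ± 0.721, SD; exact permutation p = 0.1). This ratio was chosen after the subunit values were seen, so its p-value adds no support beyond those of *Prkar1a* and *Prkaca*. It concerns transcripts, not protein.

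**Figure D2:**
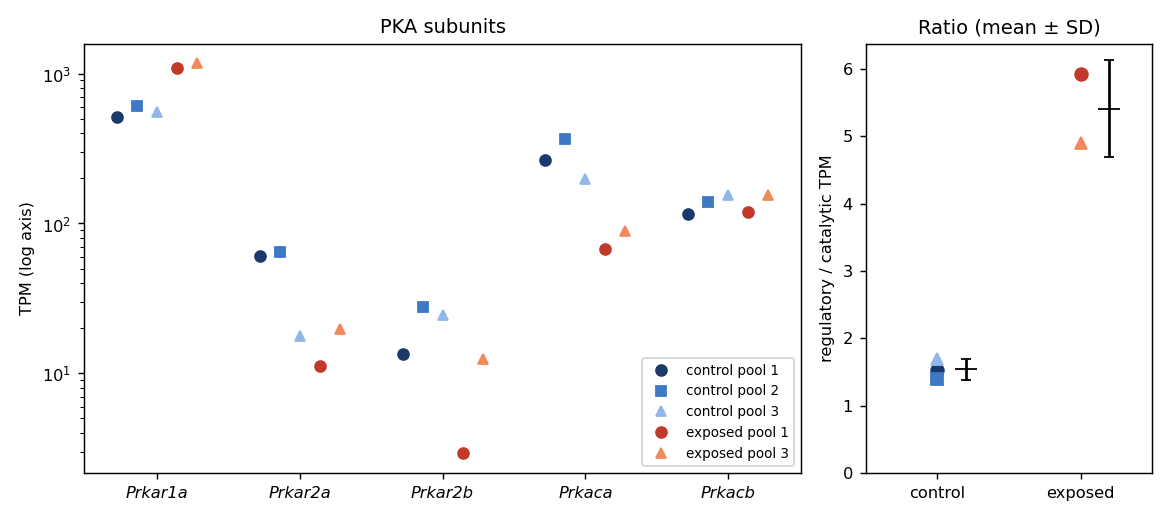
Left, TPM (log axis) of 5 PKA subunit genes in each pool; right, the ratio of summed regulatory to summed catalytic TPM in each pool, with the mean and SD of each condition beside the points. *Prkar1a* was higher and *Prkaca* lower in both exposed pools, *Prkar2a* in control pool 3 lay with the exposed pools, and the ratio was 1.39 to 1.69 in the control pools and 4.90 to 5.92 in the exposed pools.

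Transcripts for cAMP synthesis came almost wholly from a single gene. *Adcy3* (ENSMUSG00000020654, chr12:4133103-4213525, plus strand), the adenylyl cyclase of olfactory transduction, held 99.96%, 99.94% and 99.90% of the adenylyl cyclase TPM in the control pools and 99.92% and 99.89% in the exposed pools (difference -0.028 percentage points, exact permutation p = 0.4). Its counts were 234241, 367143 and 277366 in the control pools and 91963 and 259445 in the exposed pools. The exposed pools disagreed: pool 1 was below every control pool, and pool 3 was inside their range at 6209 CPM against 5386, 7435 and 6000 CPM. The log2 fold change was -0.59 with a standard error of 0.42 (edgeR adjusted p = 0.505). It was -0.027 without exposed pool 1 (adjusted p = 0.975), and -1.57 and called without exposed pool 3 (adjusted p = 0.0713), so either value rests on 1 exposed pool. Exons of *Cenpo* on the opposite strand share 22.1% of the exonic bases of *Adcy3*, and reads there were assigned to neither gene.

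None of the other 9 adenylyl cyclases was tested. *Adcy5* had 0, 155 and 49 counts in the control pools and 7 and 0 in the exposed pools, and *Adcy7* had 29, 24 and 80 counts and 46 and 161 counts. *Adcy1* was counted only in control pool 3 (103 counts), whereas *Adcy9* was seen everywhere, at 19 to 108 counts. *Adcy4*, *Adcy6*, *Adcy8* and *Adcy10* never exceeded 3 counts in any pool, and *Adcy2* had at most 19.

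The phosphodiesterases were dominated by *Pde4a* and *Pde1c*, the cAMP-specific enzyme of the cell body and the calcium-activated enzyme of the cilia. With *Pde2a*, the enzyme of the cGMP-using neurons, they held 88.3 ± 0.963% of phosphodiesterase TPM in the control pools and 87.2 ± 1.47% in the exposed pools (SD, n = 3 and n = 2; exact permutation p = 0.4). *Pde2a* itself was counted only in control pool 2 (2 counts), and 64.3% of its exonic bases are shared with the gene model *Gm45837*, where reads were not counted. *Pde6d* and *Pde4dip* were left out of these sums, since they carry the name without the enzyme activity: *Pde6d* encodes a prenyl-binding carrier of ciliary proteins and *Pde4dip* a scaffold of the Golgi and centrosome. *Pde12* was kept, although it degrades oligoadenylates and not cyclic nucleotides.

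*Pde1c* had 69700, 102658 and 83882 counts in the control pools and 71704 and 76137 counts in the exposed pools. The ranges overlapped, and the log2 fold change was -0.069 with a standard error of 0.14 (edgeR adjusted p = 0.831). *Pde4a* had 53876, 76103 and 66695 counts and 73982 and 71799 counts. In CPM its exposed pools, at 1725 and 1718, lay above the control pools, at 1239 to 1541, without a call (log2 fold change 0.29, standard error 0.13, edgeR adjusted p = 0.283). As a share of phosphodiesterase TPM, *Pde4a* was at 59.4 ± 0.984% against 63.3 ± 2.17% and *Pde1c* at 28.8 ± 0.733% against 23.9 ± 0.702% (SD, n = 3 and n = 2; exact permutation p = 0.1 for each). Total phosphodiesterase TPM was 1068 ± 177 in the control pools and 1090 ± 79.9 in the exposed pools (exact permutation p = 1).

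**Figure D3:**
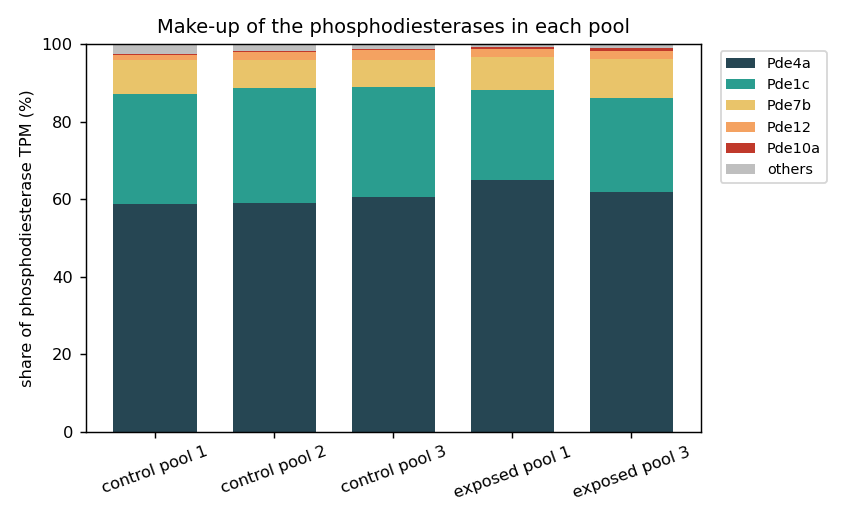
Stacked bars of the share of phosphodiesterase TPM (%) held by each gene in each pool, without *Pde6d* and *Pde4dip*. *Pde4a* took 58.8% to 60.6% in the control pools and 61.7% to 64.8% in the exposed pools, *Pde1c* 28.4% to 29.7% and 23.4% to 24.4%, and *Pde10a* was a thin layer in all 5.

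*Pde10a* (ENSMUSG00000023868, chr17:8525372-8986648, plus strand), an enzyme that degrades both cAMP and cGMP and is best known from the striatum, was the called phosphodiesterase. It had 253, 609 and 212 counts in the control pools and 1197 and 1925 counts in the exposed pools, without overlap. Its mean level was 7.58 ± 4.16 CPM (SD, n = 3) and 37.0 ± 12.8 CPM (SD, n = 2), a 4.88-fold difference and the largest log2 fold change among the 26 tested members (2.29, standard error 0.50, edgeR adjusted p = 0.0721). Per length it remained a minor enzyme at 8.88 TPM in the exposed pools, against 689 TPM for *Pde4a*. The call was lost without control pool 1 (log2 fold change 2.14, adjusted p = 0.145) and with a filter at 10 counts (2.29, adjusted p = 0.104). It was also lost with the ERCC scale (2.03, adjusted p = 0.313), with the block (2.79, adjusted p = 0.207) and at an adjusted p under 0.05. Without exposed pool 1 (2.59) and without exposed pool 3 (1.85), fits that leave a single exposed pool, the call was lost as well.

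Other phosphodiesterase-named genes had pools that did not overlap, as did 40.0% of all genes tested, and did not pass the threshold. *Pde7b*, a cAMP-specific enzyme, had 12811, 15022 and 12209 counts in the control pools and 15397 and 19092 counts in the exposed pools (log2 fold change 0.50, standard error 0.16, edgeR adjusted p = 0.161). *Pde4dip* had 4905, 8661 and 5148 counts and 9402 and 9258 counts (0.73, standard error 0.23, adjusted p = 0.165), and was called without control pool 2 (0.98, adjusted p = 0.0729). *Pde6d* lay lower in the exposed pools, at 650 and 588 CPM against 776 to 1068 CPM (-0.55, standard error 0.17, adjusted p = 0.152). *Pde12* and *Pde4d* overlapped, with log2 fold changes of 0.14 and 0.69 (adjusted p = 0.865 and 0.526).

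*Akap13* (ENSMUSG00000066406, chr7:75455534-75754609, plus strand) was the called anchoring protein. It encodes a large protein that binds PKA. Its counts were 2359, 5101 and 4934 in the control pools and 10004 and 12990 in the exposed pools, and the conditions did not overlap. The mean rose from 88.1 ± 29.4 CPM (SD, n = 3) to 272 ± 54.9 CPM (SD, n = 2), 3.09-fold (log2 fold change 1.63, standard error 0.31, edgeR adjusted p = 0.0498). The call was lost without control pool 2 (1.76, adjusted p = 0.129), without exposed pool 1 (1.81, adjusted p = 0.211), without exposed pool 3 (1.38, adjusted p = 0.208), with the ERCC scale (1.35, adjusted p = 0.860) and with the block (1.82, adjusted p = 0.146). Among the myeloid markers, *Ptprc* had 0, 54 and 1 counts in the controls and 542 and 517 counts after exposure, without a call (edgeR adjusted p = 0.191). *Fcer1g*, which was called, had 241, 107 and 74 counts against 776 and 851. The mean CPM of *Aif1*, *C1qb*, *C1qc* and *Cx3cr1* were lower after exposure, and those of the other myeloid markers were higher. The sum over the 15 markers overlapped between the conditions. The part of the myeloid markers in the *Akap13* and *Pde10a* values was not tested.

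The other 10 anchoring proteins tested were not called, with log2 fold changes from -0.86 for *Akap12* to 0.54 for *Akap10*. Of these, the pools of *Akap17b*, the highest of the family per length (mean 48.0 TPM), did not overlap: 88.0, 107 and 88.2 CPM in the control pools and 76.6 and 75.2 CPM in the exposed pools (log2 fold change -0.31, edgeR adjusted p = 0.427). *Akap8l*, which encodes a nuclear protein related to *Akap8*, did not overlap in the other direction, at 28.7 to 33.3 CPM against 44.6 and 35.3 CPM (0.37, edgeR adjusted p = 0.482). Summed anchoring protein TPM was 229 ± 43.9 in the control pools and 221 ± 9.13 in the exposed pools (SD, n = 3 and n = 2; exact permutation p = 0.7). *Akap12*, *Akap1*, *Akap6* and *Akap9* had negative and *Akap10*, *Akap3*, *Akap8* and *Akap11* positive log2 fold changes, all with overlapping pools, and with the ERCC scale *Akap3* and *Akap8* turned to -0.024 and -0.17.

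**Figure D4:**
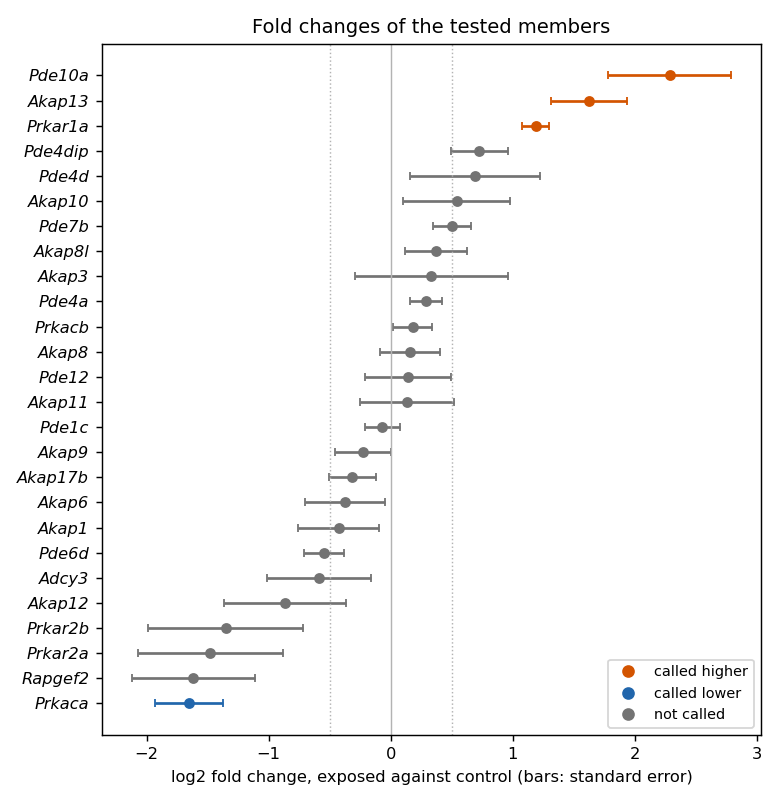
Log2 fold change of exposed against control pools for the 26 tested members, with the standard error of the fit as bars, and dotted lines at an absolute value of 0.5. *Pde10a*, *Akap13* and *Prkar1a* were called higher and *Prkaca* lower, and *Prkar1a* had the smallest standard error of the 4 at 0.11.

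Among the Rap exchange factors, which link cyclic nucleotides or other signals to the small GTPase Rap, *Rapgef2* was tested. It had 2764, 5529 and 2055 counts in the control pools and 663 and 1353 counts in the exposed pools, without overlap (log2 fold change -1.62, standard error 0.50, edgeR adjusted p = 0.164). Without control pool 3 it was called (-1.85, adjusted p = 0.0885). *Rapgef3*, the cAMP-activated exchange factor Epac of type I, had 80, 172 and 176 counts against 78 and 48 counts, and *Rapgef4* had a single count in control pool 1.

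Counts for the synthesis and kinases of cGMP were few in these neurons. None of the 9 guanylyl cyclase subunits was tested, and *Gucy1a1*, *Gucy1a2*, *Gucy1b1* and *Gucy2f* had no count in any pool, which allows up to 3 counts per library, 0.0608 to 0.0718 CPM, by counting error alone. The cGMP-dependent kinases *Prkg1* and *Prkg2* were likewise at 0 in all 5 pools. *Gucy2d*, the receptor cyclase that defines the cGMP-using olfactory neurons, had 11 counts in control pool 2 and 8 in exposed pool 3. *Gucy1b2*, a soluble cyclase subunit known from another rare olfactory neuron type, had 133, 128 and 6 counts in the control pools and 125 and 287 in the exposed pools, which is uneven within the control pools alone. Of the 12 natriuretic receptors, nitric oxide synthases and cyclase activators outside the naming rule, 5 were at 0 everywhere and 1 was tested, with no call.

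Beyond those already given, several members reached 142 counts in some pool but not in all pools of a condition. Of the 46 members not tested, 14 did so and 32 never did, and 9 had no count at all. Their values were often carried by 1 or 2 pools: *Pde3b* had 232 of its counts in control pool 2 against 0, 1, 24 and 2 elsewhere, *Pde6g* was counted only in control pools 1 and 2 (251 and 20), and *Pde4b* had 190, 0 and 8 counts in the controls and 55 in each exposed pool. *Pde6g* is known as a subunit of rod photoreceptors. *Pde1b*, a relative of *Pde1c*, had 22, 352 and 478 counts in the controls and 0 and 14 after exposure.

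*Pde9a*, a cGMP-specific enzyme, had 100, 203 and 59 counts in the control pools and 0 and 15 in the exposed pools, and *Pde7a* 237, 69 and 88 counts against 4 and 55. *Pde8a* had 230, 255 and 8 counts against 102 and 46, and *Pde3a* 12, 143 and 25 counts against 181 and 105. Among the anchoring proteins, *Akap7* had 450, 625 and 116 counts against 110 and 97, and without control pool 3 it could be tested and was called lower (log2 fold change -2.21, edgeR adjusted p = 0.0998). The counts of *Akap5* were 51, 1 and 173 against 2 and 67. When the filter was dropped with all 5 pools kept, 37 more members could be tested and none was called, with 3 at an unadjusted p under 0.05 and a lowest adjusted p of 0.420 (edgeR).

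**Figure D5:**
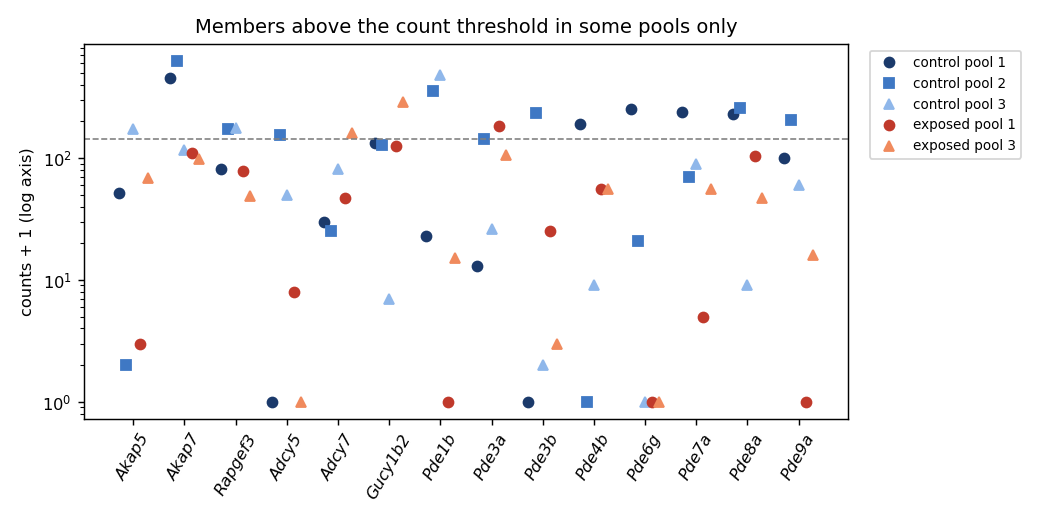
Counts plus 1 (log axis) in each pool for the 14 members that reached 142 counts (dashed line) in some pools but did not pass the filter. Pools of 1 condition often lie far apart, as for *Pde6g*, at 251, 20 and 0 counts in the control pools.

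The rest of the cascade, taken from lists outside the naming rule, gives the frame of these values. Of the 9 olfactory G protein, exchange factor and channel genes, 8 were tested, none was called higher and 3 lower, all of them subunits of the cyclic nucleotide-gated channel. *Cnga2*, the principal subunit, had 5447, 5917 and 5151 CPM in the control pools and 3320 and 2871 CPM in the exposed pools (log2 fold change -0.83, standard error 0.12, edgeR adjusted p = 0.0194). *Cnga4* and *Cngb1* had log2 fold changes of -0.53 and -0.91 (adjusted p = 0.0734 and 0.0486). *Gnal*, the alpha subunit of the olfactory G protein, overlapped between conditions (-0.17, adjusted p = 0.596). *Gnb1*, its beta partner, was like *Prkar2a* in that control pool 3 lay near the exposed pools: 364531, 384863 and 87225 counts against 56433 and 49961 (-2.26, adjusted p = 0.135). In CPM, *Gnb1* had 8382, 7794 and 1887 in the control pools and 1316 and 1196 in the exposed pools. The summed erythroid markers had 348, 108 and 13.0 CPM in the control pools and 15.5 and 6.70 CPM in the exposed pools. The part of the erythroid markers was not tested.

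Of 11 PKA inhibitors, other cyclic nucleotide binders and efflux pumps, 6 were tested and 1 was called. *Pkib*, the beta inhibitor of the PKA catalytic subunits, had 259, 233 and 229 CPM in the control pools and 374 and 370 CPM in the exposed pools (log2 fold change 0.63, standard error 0.13, edgeR adjusted p = 0.0650). *Pkia* and *Pkig*, the alpha and gamma inhibitors, had values of -0.021 and -0.13 (adjusted p = 0.951 and 0.790). Of 8 CREB family and coactivator genes, 7 were tested and none was called, and *Creb1* had a log2 fold change of 0.049 (adjusted p = 0.925). The median log2 fold changes of these 3 lists, over the genes tested, were -0.35, 0.052 and -0.17, against -0.026 over all genes.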

How the data were processed

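FACS-seq counts of 5 libraries, 3 of control and 2 of exposed neurons, entered every comparison. The authors amplified the cDNA of each pool by SMARTer chemistry, sequenced single reads of 50 bases, aligned them to GRCm38 with STAR 2.7.0a and summed reads over the exons of each gene with featureCounts 1.6.3, without strand and without multi-mapping reads, on Ensembl 99 models with added odorant receptor exons, spike-ins and the reporter. The counts were deposited as raw whole numbers per gene, one table per library, so no filter or scaling is in them. Reads over exons of several genes were not counted, which lowers overlapping genes: 4 of the 26 members tested have such an overlap and 1 has it over more than 10% of its exons. Versions come from the submitters' processing notes and the study's methods.

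Groups and pool numbers came from the labels. Symbols came from GENCODE M21 for 55144 of 55411 genes, and the 92 spike-in rows and 1 reporter row were kept out of library sizes. The spike-ins took 0.249% to 0.631% of counts. The main test was edgeR 4.0.16 in R 4.3.3 (TMM, robust glmQLFit, glmQLFTest) with condition as the only factor, on genes whose counts all reached 142 in either condition. That minimum is the lowest point between the modes of the log2 count density. Calls required an adjusted p under 0.1 together with a log2 fold change beyond 0.5 in size. CPM were TMM-scaled, TPM were computed from counts and exon lengths over genes, and standard errors were derived from the fold change and its F statistic. Shares and sums were compared with two-sided exact permutation tests in scipy 1.17.1. The limit of 3 counts covers counting error only, since PCR copies were counted as reads.

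The test was checked on simulated counts of 9878 genes, exposed against control. It called 31 of 50 genes changed 2-fold, all 48 changed 4-fold, all 50 changed 8-fold and all 50 changed 16-fold, and 24 of 9680 unchanged genes. The simulated spread followed the same formula of the mean count for every gene. Genes whose pools disagree within a condition were therefore not covered, and these shares do not carry over to them. In the data, *Gnb1* was such a gene and was not called at a log2 fold change of -2.26 (edgeR adjusted p = 0.135).

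The members, lists and tests were chosen with earlier results of these data known. Genes named are the members called, a list of the transduction, PKA and cGMP genes whatever their values, uncalled members whose pools did not overlap or that led their family by TPM, and members reaching 142 counts in some library without passing the filter. The remaining members were named where few. *Cenpo*, *Gm45837*, the single marker genes and the pathway genes given with values were picked after their values were seen. Alternatives were DESeq2 1.42.0 with apeglm 1.24.0, DESeq2's size factors, ERCC scaling, other filters and thresholds, no robust estimation, the pool number as a block, and each library left out. Promoter windows were read from RefSeq (GRCm38.p6).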

Additional observations from a re-analysis of the deposited data

How the results depend on the processing

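Among the members, 3 were called higher and 1 lower by edgeR, against 4 and 3 by DESeq2 with apeglm, which added *Pde4dip*, *Prkar2a* and *Rapgef2*. No member was called with ERCC scaling (0 higher, 0 lower), which moved the median over all genes from -0.026 to -0.23 on the log2 scale. The spike-ins themselves varied within the control pools, at 0.631%, 0.249% and 0.332% of counts. With this scale the standard error of *Prkar1a* was 0.71 against 0.11 in the main fit, at log2 fold changes of 0.97 and 1.19. Leaving out 1 library gave 1 to 3 members called higher and 0 to 4 called lower, and where an exposed pool was left out the remaining pool was assumed to vary like the controls. Over all genes, 342 were called higher and 186 lower, against 671 and 715 by DESeq2 with apeglm, 93 and 48 with ERCC scaling, 190 and 91 at an adjusted p under 0.05, and 93 to 353 and 19 to 436 with 1 library left out. *Prkar1a* was called in 11 of the 13 alternatives, *Prkaca* in 9, *Akap13* in 8 and *Pde10a* in 6.

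Direction reversed in members that were not called. *Prkacb*, *Akap3*, *Akap8* and *Pde12* turned to log2 fold changes of -0.0078, -0.024, -0.17 and -0.20 with ERCC scaling, and *Pde1c* to 0.034 with the replicate block. With 1 library left out, log2 fold changes ranged from -0.16 to 0.040 for *Pde1c* (positive without control pool 2), from -0.088 to 0.77 for *Akap3* and from -0.12 to 0.41 for *Pde12* (both negative without control pool 1), from -0.15 to 0.38 for *Akap8* (negative without exposed pool 1), and from -0.54 to 0.57 for *Akap11* and -0.20 to 1.22 for *Pde4d* (both negative without exposed pool 3). The difference in the *Prkar1b* share ranged from 0 to 0.0230 percentage points, since exposed pool 1 alone holds its counts. The cause was not tested.

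With the pool number as a replicate block, 0 members were called higher and 0 lower, and 11 and 1 of all genes. Only numbers 1 and 3 occur in both conditions. Mice of both conditions were handled on the same days, 4 per condition and day, but the labels do not tie a number to a day. Deviations of same-numbered pools from their condition means correlated at 0.029 for number 1 and -0.069 for number 3. With 2 exposed pools these deviations are mirror images, so the values cannot show whether a day was shared. The phosphodiesterase share differed by -1.09 percentage points as reported, by -1.37 without *Pde6g* and *Pde6h* and by -1.17 without *Pde12*, denominators chosen after seeing the data. With 2 exposed pools, the spread in that condition rests on 1 difference per gene.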
